A study of Mus musculus with 24 samples.

Results

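The 10 genes described here encode granzymes and other components of the killing machinery of lymphocytes. They were chosen by name: the granzymes Gzma, Gzmb, Gzmk and Gzmm, perforin (Prf1), the granule membrane protein Nkg7, the granule protease cathepsin W (Ctsw), the cathepsin inhibitors cystatin F (Cst7) and Ctla2a, and the death ligand Fasl. The choice was made with earlier results of these data known. Counts and medians of members set beside all genes tested therefore describe the list and are not a test of it. All 10 were found among the 34111 genes used, and all 10 had counts high enough to be tested in every comparison. Polyadenylated RNA of T lymphocytes from the spleens of C57BL/6N mice had been counted per gene with a 3′ tag method. The mice were Atm-/- (KO) or Atmwt/wt (WT), and each genotype had either received a B-cell lymphoma transplant (lymphoma) or none (control). Each pool of mice gave a CD8 and a CD4 library, so that 24 libraries fell into 8 groups of 3. The groups were CD8 KO lymphoma, CD8 WT lymphoma, CD8 KO control and CD8 WT control, and the same groups of CD4 libraries. The WT lymphoma libraries were from single mice and all others from pools of 2 or 3, with 22 mice in 12 pools. The Atm allele, the lymphoma line, the ages of the mice, the time after transplantation and the way CD4 and CD8 cells were parted are not given in the sources used here.

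Cytotoxic lymphocytes store granzymes, which are serine proteases, together with perforin in secretory granules. On contact with a target cell the granules fuse with the membrane, perforin forms pores, and the granzymes enter the target and cut proteins that lead to its death. Fas ligand on the cell surface is a separate route that engages the death receptor Fas. In the spleen these genes are known from activated and memory CD8 T cells, from some CD4 T cells, from gamma-delta T cells and, at high levels, from natural killer cells. T-bet (Tbx21), Eomes and Runx3 are transcription factors known to act on several of them.

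Levels are CPM, the counts of a gene scaled to a common library total, and fold changes are log2 values ± their standard error (SE). A member is said to have risen or fallen where edgeR's quasi-likelihood test gave an adjusted p under 0.05 over all genes tested. Library totals ran between 6470482 and 10196062 counts, and 15263 to 17707 genes had a count. Atm itself stood at 26.9 to 107 CPM in the 12 KO libraries and at 117 to 210 CPM in the 12 WT libraries, without overlap, although a 3′ tag outside the disrupted part of the gene would not show the genotype. The co-receptor labels held against their markers: Cd4 was at most 7.94 CPM in CD8 libraries and at least 71.1 CPM in CD4 libraries. The summed CPM of Cd8a and Cd8b1 was 317 to 755, 687 to 905, 975 to 1062 and 998 to 1206 in the CD8 KO lymphoma, WT lymphoma, KO control and WT control libraries, and at most 62.3 in any CD4 library. The summed CPM of 6 T cell receptor and CD3 genes was 647 to 1282 in CD8 KO lymphoma libraries, lower than in the other CD8 groups, where its lowest value was 1299. In CD8 KO lymphoma 1, which had the lowest of these sums, 6 B cell markers summed to 617 CPM, against 125 and 26.8 CPM in CD8 KO lymphoma 2 and 3, and results that rest on it are given with and without it. The sum of 3 Y-linked genes, which are expressed in male cells, was at least 54.7 CPM in every WT control library. In KO controls it was at most 3.82 CPM in libraries 1 and 2 of either co-receptor. It was 66.5 CPM in CD8 KO control 3 and 57.7 CPM in CD4 KO control 3. Libraries of bulk cells cannot tell fewer cells of a type from less RNA per cell, and this holds for every level below.

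Gzmm set the CD8 libraries apart and, within them, set KO from WT. It was the member with the widest fitted gap between co-receptors, in WT controls only narrowly (2.85 ± 0.37, against 2.83 ± 0.27 for Nkg7). It was also the one that rose in CD8 KO libraries both with and without lymphoma. In control mice without a transplant, all 10 members had a higher fitted level in KO than in WT libraries of either co-receptor. Of these, 3 rose in CD8 cells (Gzmm, Fasl and Ctla2a), where 0.403% of genes tested rose. In CD4 cells 1 rose (Gzmb), where 1.94% of genes tested rose. In mice with lymphoma, 1 member (Gzmm) was higher in CD8 KO than in CD8 WT libraries, against 0.0711% of genes tested. With lymphoma against control 1 member fell, Ctsw in CD8 KO cells, where 0.791% of genes tested fell. Between the co-receptors, 4 or 5 members were higher in CD8 than in CD4 libraries in each of the 4 conditions, against 1.11%, 1.16%, 2.35% and 1.86% of genes tested in KO lymphoma, WT lymphoma, KO control and WT control mice. Of the calls within a co-receptor, that of Gzmm in CD8 controls was the one that held whichever library was left out; values for the others are given with each gene.

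**Figure D1:**
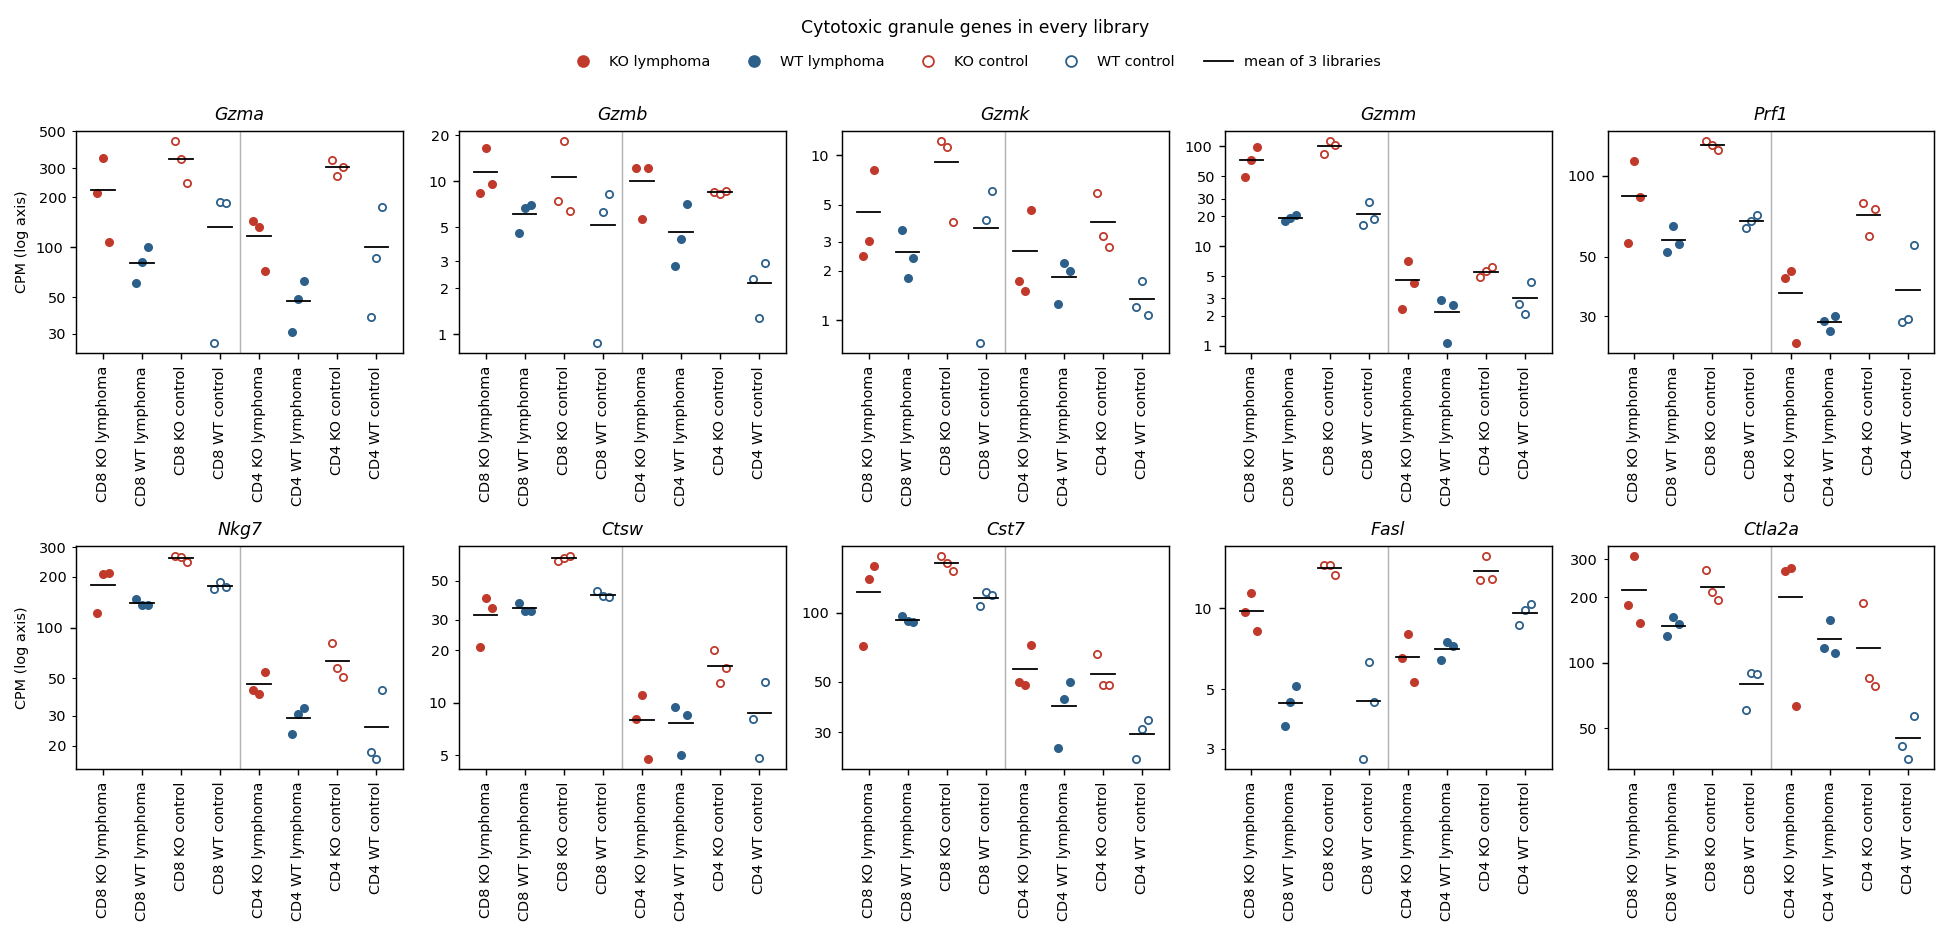
CPM of each member on a log axis, with 1 point a library, 3 libraries a group and a bar at the group mean; CD8 groups stand left of the grey line and CD4 groups right of it. Gzmm lies between 16.1 and 114 CPM in CD8 libraries and at 7.01 CPM or less in CD4 libraries, while Gzma, Gzmb and Fasl reach similar levels in both.

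The windows before a transcript start of 4 members are shown as examples and not as a full set. Gzmm, Nkg7 and Prf1 were higher in CD8 than in CD4 libraries, and Gzma was lowest in the library with the lowest level of natural killer cell markers. Each line gives the 250 bases before a RefSeq transcript start (GRCm38.p6), 5′ to 3′ on the gene's strand. Capitals mark AGGTGT or its reverse complement ACACCT, a half-site that T-box factors such as T-bet and Eomes can bind, and TGTGGT or its reverse complement ACCACA, a core that Runx factors can bind. The windows are chr10:79688770-79689019 (plus strand) for Gzmm, chr7:43436888-43437137 (plus strand) for Nkg7, chr10:61297586-61297835 (plus strand) for Prf1 and chr13:113100982-113101231 (minus strand) for Gzma.
Gzmm: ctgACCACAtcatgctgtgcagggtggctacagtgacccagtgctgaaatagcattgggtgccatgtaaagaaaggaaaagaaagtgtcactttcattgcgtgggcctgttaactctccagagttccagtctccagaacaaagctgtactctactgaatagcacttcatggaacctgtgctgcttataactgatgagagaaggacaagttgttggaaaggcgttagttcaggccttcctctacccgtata
Nkg7: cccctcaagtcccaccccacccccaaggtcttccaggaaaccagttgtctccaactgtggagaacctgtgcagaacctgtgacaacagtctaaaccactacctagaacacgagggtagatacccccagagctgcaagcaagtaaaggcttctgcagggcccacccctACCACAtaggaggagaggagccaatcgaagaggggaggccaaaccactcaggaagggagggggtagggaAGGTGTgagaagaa
Prf1: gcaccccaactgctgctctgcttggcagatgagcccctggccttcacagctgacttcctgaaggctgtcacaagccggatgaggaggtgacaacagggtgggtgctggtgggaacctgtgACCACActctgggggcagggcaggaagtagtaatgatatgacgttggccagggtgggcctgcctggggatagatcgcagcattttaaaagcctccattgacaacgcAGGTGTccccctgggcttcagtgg
Gzma: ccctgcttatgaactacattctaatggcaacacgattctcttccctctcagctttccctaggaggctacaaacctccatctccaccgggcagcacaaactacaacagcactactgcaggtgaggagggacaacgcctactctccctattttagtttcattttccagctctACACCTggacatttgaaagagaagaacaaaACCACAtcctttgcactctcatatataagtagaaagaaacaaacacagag
The Nkg7 window holds the T-box half-site at -14 to -9 from the start and the Runx core at -83 to -78. This window ends at chr7:43437137, past the gene start of GENCODE M21 at chr7:43437073. Its T-box half-site therefore lies inside the gene by that annotation. In Prf1 they lie at -24 to -19 and -130 to -125, and in Gzma at -80 to -75 and -50 to -45. The Gzmm window holds the Runx core at -247 to -242 and no AGGTGT. Cst7 was also higher in CD8 libraries, and its window, not printed, holds the Runx core at -188 to -183 and no AGGTGT. RefSeq windows were at hand for 9 of the 10 members, 11 windows in all, and on either strand AGGTGT was found for 4 genes (Gzma, Gzmk, Prf1 and Nkg7) and TGTGGT for 6 (Gzma, Gzmb, Gzmm, Prf1, Nkg7 and Cst7). Counted by window, these were 4 and 6 of the 11, and the shares among all 32851 windows of this length were 11.8% and 14%. In all, 9 strings were searched, some inside others. GGTGTGA was found for 3 genes (3.33% of all windows), AGGTGTGA for 1 (1.12%), TGTGGTT for 2 (4.4%) and TGTGGTTT for 1 (1.49%). The GGTGTGA match of Gzmm lies in another of its windows, inside the gene and not printed. The AP-1 string TGACTCA was found for 2 genes in 3 windows (4.46%), and the Ets strings GGAAGT and CAGGAAG for 4 genes each (19.7% and 10.8%). A match is only these letters in these windows, and binding was not measured.

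Granzyme M (Gzmm, chr10:79689020-79695261, plus strand, GRCm38 positions from GENCODE M21 here and below) encodes a granzyme that cuts after methionine and leucine and is known from innate-like lymphocytes and CD8 T cells. Its level was 49.5, 73.0 and 99.0 CPM in CD8 KO lymphoma libraries, against 17.9, 19.3 and 20.5 CPM in CD8 WT lymphoma libraries. It was 84.4, 114 and 104 CPM in CD8 KO controls, against 16.1, 27.6 and 18.7 CPM in CD8 WT controls. Every CD8 KO library therefore lay above every CD8 WT library, with or without lymphoma. The CD4 libraries held 2.34, 7.01 and 4.29 CPM in KO and 2.91, 1.06 and 2.55 CPM in WT mice with lymphoma. In controls, CD4 libraries held 4.87, 5.63 and 6.13 CPM in KO mice and 2.64, 2.08 and 4.33 CPM in WT mice. No CD4 library reached the lowest CD8 library, so the CD8 KO, CD8 WT and CD4 libraries formed 3 sets without overlap. Within the CD8 KO and the CD8 WT set the lymphoma and control libraries overlapped, and in the CD4 set the KO controls lay above the WT controls and the WT lymphoma libraries. Gzmm rose by 1.95 ± 0.26 (log2 fold change ± SE, adjusted p = 0.0172) in CD8 KO lymphoma libraries against WT, and by 2.29 ± 0.26 (adjusted p = 0.0043) in CD8 KO controls against WT. The control difference stayed under the threshold with each of its 6 libraries left out, with values between 2.14 and 2.57. The lymphoma difference missed it without CD8 KO lymphoma 3, or CD8 WT lymphoma 1, 2 or 3 (adjusted p 0.0508 to 0.13), or in a fit of those 6 libraries alone (0.102), and was 2.15 (adjusted p = 0.00256) without CD8 KO lymphoma 1. The matching CD4 differences were 1.06 ± 0.47 with lymphoma (adjusted p = 0.446) and 0.83 ± 0.45 in controls (adjusted p = 0.352), and neither passed.

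Granzyme A (Gzma, chr13:113093825-113100981, minus strand) is a tryptase-like protease and one of the abundant granzymes of natural killer cells. It held 212, 347 and 107 CPM in CD8 KO lymphoma libraries, against 60.9, 81.7 and 99.7 CPM in CD8 WT lymphoma libraries. In CD8 controls it held 438, 340.3 and 245 CPM in KO mice, against 26.3, 186 and 184 CPM in WT mice. KO and WT did not overlap in either pair, but CD8 WT control 1 lay far below the other WT controls. CD4 libraries were at similar levels, with 144, 132 and 72.2 CPM in KO lymphoma and 30.8, 48.4 and 62.2 CPM in WT lymphoma libraries. CD4 controls held 338, 267 and 302 CPM in KO mice and 37.9, 86.4 and 175 CPM in WT mice. Again no KO library fell within the WT range of its pair. None of the 8 comparisons within a co-receptor passed in edgeR with all libraries: the KO against WT differences were 1.48 ± 0.63 in CD8 lymphoma, 1.39 ± 0.62 in CD8 control, 1.29 ± 0.46 in CD4 lymphoma and 1.55 ± 0.46 in CD4 control libraries, with adjusted p from 0.115 to 0.384. The CD4 control difference was called by DESeq2 (1.55, adjusted p = 0.00942), by limma voom (1.88, 0.0347) and by edgeR without CD4 WT control 3 (2.15, 0.0367).

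Granzyme B (Gzmb, chr14:56258838-56262260, minus strand), the aspartate-cutting granzyme that triggers caspases, was low, at 6 to 159 counts a library. CD8 KO lymphoma libraries held 8.43, 16.5 and 9.60 CPM, against 4.60, 6.68 and 6.98 CPM in CD8 WT lymphoma libraries. CD8 controls held 7.49, 18.5 and 6.38 CPM in KO and 0.873, 6.31 and 8.33 CPM in WT mice, which overlapped. In CD4 cells the values were 12.2, 5.71 and 12.2 CPM in KO lymphoma and 2.78, 4.22 and 7.10 CPM in WT lymphoma libraries, which also overlapped. The CD4 controls stood apart and were tight, with 8.56, 8.23 and 8.69 CPM in KO mice against 2.31, 1.27 and 2.94 CPM in WT mice. There Gzmb rose by 1.92 ± 0.39 in KO mice (adjusted p = 0.0354). The call was lost without any of CD4 KO control 1, 2 or 3, or CD4 WT control 1 or 2 (adjusted p 0.0862 to 0.191), and with all 24 libraries in 1 fit (0.0825). It was also lost with the share of mice whose identifier holds the letter B as a covariate (0.0633), a label whose meaning is not given. The CD8 control difference was 1.07 ± 0.61 (adjusted p = 0.442).

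Granzyme K (Gzmk, chr13:113171608-113225908, minus strand), a tryptase-like granzyme known from memory CD8 T cells, averaged 3.7 CPM and ran from 0.727 to 12.2 CPM over the 24 libraries, or 5 to 97 counts. Its KO controls lay at 3.95 to 12.2 CPM in CD8 and 2.79 to 5.87 CPM in CD4 cells, against 0.727 to 6.04 CPM in CD8 WT and 1.08 to 1.73 CPM in CD4 WT controls. Only the CD4 pair was free of overlap, and no comparison passed for Gzmk in edgeR, while limma voom called that CD4 control difference (1.41, adjusted p = 0.0433). The 6 other granzymes looked for (Gzmc, Gzmd, Gzme, Gzmf, Gzmg and Gzmn) were at or near 0. Gzme, Gzmg and Gzmn had no count in any of the 24 libraries, which allows up to 0.294 to 0.464 CPM a library by counting error alone, and the highest value, 1.63 CPM, was Gzmc in CD8 KO lymphoma 2. None of the 6 had counts enough to be tested.

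Perforin (Prf1, chr10:61297833-61304680, plus strand) forms the pores through which granzymes act. It stood at 56.0, 113 and 83.5 CPM in CD8 KO lymphoma libraries and at 52.2, 64.9 and 55.7 CPM in CD8 WT lymphoma libraries. CD8 controls held 135, 129.8 and 125 CPM in KO mice, against 63.7, 67.9 and 71.1 CPM in WT mice. The KO controls were the highest of all groups and did not overlap the WT controls. In CD4 cells Prf1 was 41.4, 44.3 and 23.7 CPM in KO lymphoma and 28.8, 26.4 and 30.1 CPM in WT lymphoma libraries. CD4 controls held 78.9, 59.4 and 75.5 CPM in KO and 28.6, 29.2 and 55.2 CPM in WT mice. The CD4 KO controls lay above the CD4 KO lymphoma libraries and, narrowly, above the WT controls. In CD8 controls the KO against WT difference was 0.98 ± 0.20 and just missed the threshold (adjusted p = 0.0652). DESeq2, limma voom, a fit of those 6 libraries alone and a fit without the filter on low counts each called it (adjusted p 0.00107 to 0.0452).

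Nkg7 (chr7:43437073-43438249, plus strand) encodes a granule membrane protein needed for full degranulation in mouse lymphocytes. Its CD8 levels were 121, 208 and 211 CPM in KO lymphoma and 147, 137 and 137 CPM in WT lymphoma libraries. CD8 controls held 266, 262 and 246 CPM in KO mice, against 169.9, 187 and 175 CPM in WT mice. The control groups were tight and apart, while CD8 KO lymphoma 1 fell below every CD8 WT library. CD4 libraries held 42.6, 40.6 and 54.9 CPM in KO lymphoma and 23.5, 30.7 and 33.6 CPM in WT lymphoma cells. CD4 controls held 80.9, 57.3 and 51.1 CPM in KO mice, against 18.3, 16.8 and 42.7 CPM in WT mice. The 3 CD4 KO libraries lay above the 3 WT libraries in both pairs. The CD4 control difference of 1.24 ± 0.29 had an adjusted p of 0.0531, just over the threshold, and passed without CD4 WT control 3 (log2 fold change 1.73, adjusted p = 0.00676). It was also called by DESeq2, by limma voom and with all 24 libraries in 1 fit (adjusted p 0.00289 to 0.0226). In CD8 controls limma voom and a fit of those 6 libraries alone called Nkg7 (0.57 and 0.56, adjusted p 0.0287 and 0.0422), and edgeR with all CD8 libraries did not (adjusted p = 0.184).

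Cathepsin W (Ctsw, chr19:5465043-5468507, minus strand) is a cysteine protease of cytotoxic lymphocytes. Its CD8 levels were 20.9, 40.2 and 35.0 CPM in KO lymphoma libraries, against 37.5, 33.6 and 33.5 CPM in WT lymphoma libraries. CD8 controls held 65.4, 67.7 and 69.5 CPM in KO mice, against 43.6, 41.2 and 40.2 CPM in WT mice. The CD8 KO controls stood above all other libraries, whereas the lymphoma groups overlapped. CD4 libraries held 8.13, 11.1 and 4.80 CPM in KO lymphoma and 9.48, 5.04 and 8.52 CPM in WT lymphoma cells. CD4 controls held 20.2, 13.0 and 15.8 CPM in KO mice, against 8.13, 4.86 and 13.1 CPM in WT mice. The CD4 KO controls lay above the CD4 KO lymphoma libraries, and the lowest of them was just under the highest WT control. In CD8 KO cells Ctsw fell by 1.08 ± 0.19 on the log2 scale with lymphoma (adjusted p = 0.0276), and in CD8 WT cells the change was -0.24 ± 0.19 (adjusted p = 0.551). The call was lost without any of CD8 KO control 1, 2 or 3 or CD8 KO lymphoma 3 (adjusted p 0.0538 to 0.132), and in a fit of those 6 libraries alone (0.0633), and held without CD8 KO lymphoma 1 (-0.86, adjusted p = 0.0452). In CD8 controls the KO against WT difference of Ctsw was 0.73 ± 0.19 (adjusted p = 0.123), and DESeq2, limma voom and a fit of those 6 libraries alone called it (adjusted p 0.00816 to 0.0235). The summed T cell markers moved the same way, at 647, 1282 and 1051 CPM in CD8 KO lymphoma libraries against 1498, 1596 and 1727 CPM in CD8 KO controls, and Cd3e fell by 0.95 ± 0.19 (adjusted p = 0.0386), a call lost without any of these libraries but CD8 KO lymphoma 2 (0.0826 to 0.155). Cd8a and Cd8b1 together were 317, 755 and 642 CPM in CD8 KO lymphoma libraries, against 1062, 975 and 1038 CPM in CD8 KO controls. Of the 6 T cell markers, 2 fell (Cd3e and Cd247), all 6 had negative fold changes and none was at 0. The part of T cell content in the Ctsw result was not tested.

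Cystatin F (Cst7, chr2:150570415-150578944, plus strand) inhibits cathepsins that activate granule proteases. CD8 libraries held 71.3, 141 and 159.8 CPM in KO lymphoma and 97.0, 91.8 and 90.9 CPM in WT lymphoma cells. In CD8 controls it was 178, 165 and 153 CPM in KO mice, against 107, 123 and 119.6 CPM in WT mice. As with Nkg7 and Ctsw, CD8 KO lymphoma 1 was the lowest CD8 library. CD4 libraries held 49.5, 48.1 and 72.0 CPM in KO lymphoma and 25.6, 42.1 and 49.8 CPM in WT lymphoma cells. CD4 controls held 66.2, 48.1 and 48.2 CPM in KO mice, against 23.0, 31.0 and 34.0 CPM in WT mice. The control groups did not overlap in either co-receptor, but no KO against WT or lymphoma comparison passed for Cst7 in edgeR. The CD4 control difference was 0.81 ± 0.24 (adjusted p = 0.106), and DESeq2, limma voom and a fit of those 6 libraries alone called it (adjusted p 0.0247 to 0.0374).

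Fas ligand (Fasl, chr1:161780689-161788495, minus strand) was low, at 19 to 150 counts a library. It stood at 9.71, 11.4 and 8.25 CPM in CD8 KO lymphoma libraries, against 3.66, 4.50 and 5.15 CPM in CD8 WT lymphoma libraries. CD8 controls held 14.5, 14.5 and 13.3 CPM in KO mice, against 2.76, 6.31 and 4.47 CPM in WT mice. All 6 CD8 KO libraries lay above all 6 CD8 WT libraries. In CD4 cells with lymphoma the values were 6.53, 8.01 and 5.30 CPM in KO and 6.44, 7.50 and 7.24 CPM in WT mice, which overlapped. CD4 controls held 12.7, 15.6 and 12.8 CPM in KO mice, against 8.68, 9.83 and 10.4 CPM in WT mice. Within each genotype the CD4 controls lay above the CD4 lymphoma libraries. In CD8 KO controls Fasl rose by 1.65 ± 0.28 (adjusted p = 0.0241), and with lymphoma the CD8 difference was 1.16 ± 0.27 (adjusted p = 0.0979), which DESeq2 (0.00804) and a fit of all 24 libraries (0.0377) called. The control call was lost without any of CD8 KO control 1, 2 or 3, or CD8 WT control 1 or 3 (adjusted p 0.0512 to 0.125). It was also lost with the mean log2 CPM of 3 Y-linked genes as a covariate (0.0919). The sum of 3 Y-linked genes, which are expressed in male cells, was 3.82, 2.79 and 66.5 CPM in CD8 KO controls, against 54.7, 178 and 118 CPM in CD8 WT controls. The CD4 differences were 0.44 ± 0.21 in controls (adjusted p = 0.289) and -0.11 ± 0.22 with lymphoma (adjusted p = 0.861).

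Ctla2a (chr13:60934155-60936625, minus strand) encodes a small inhibitor of cathepsin L-like proteases first found in activated mouse T cells. CD8 libraries held 185, 310.2 and 153 CPM in KO lymphoma and 132, 162 and 151 CPM in WT lymphoma cells. CD8 controls held 266, 212 and 194 CPM in KO mice, against 60.8, 89.9 and 89.1 CPM in WT mice. The CD8 KO controls lay above the WT controls, and every CD8 lymphoma library lay above every CD8 WT control. In CD4 cells the values were 264, 273 and 63.3 CPM in KO lymphoma and 117, 157 and 111 CPM in WT lymphoma libraries. CD4 controls held 189, 85.1 and 78.4 CPM in KO mice, against 41.4, 36.2 and 56.9 CPM in WT mice. CD4 KO lymphoma 3 stood far below the other libraries of its group. Ctla2a rose by 1.52 ± 0.25 in CD8 KO controls (adjusted p = 0.03), and the CD4 control difference was 1.33 ± 0.50 (adjusted p = 0.2). The CD8 call was lost without any of CD8 KO control 1, 2 or 3, or CD8 WT control 1 or 3 (adjusted p 0.081 to 0.129), with all 24 libraries in 1 fit (0.133) and with the Y-linked covariate (0.112).

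The Ctla2a count could be uncertain because of its neighbour Ctla2b (chr13:60895350-60897447, minus strand), a gene on the same strand that is near-identical over part of its length. The longest coding transcripts of the pair aligned over 435 bases, 95.9% of them identical, so reads that fall there could be assigned to either gene. Their last 300 bases, where 3′ tags are expected, aligned over no more than 38 bases. In KO controls Ctla2b rose by 1.20 ± 0.23 in CD8 (adjusted p = 0.0449) and by 1.43 ± 0.33 in CD4 cells (adjusted p = 0.0492), where Ctla2a did not pass, and either call was lost whichever of its 6 libraries was left out (adjusted p 0.0612 to 0.227). Ctla2b held 30.3, 32.4 and 27.2 CPM in CD8 KO controls, against 8.87, 14.6 and 16.2 CPM in CD8 WT controls. The summed level of platelet markers was also higher in KO than in WT controls. The sum of 8 of them was 262, 157 and 133 CPM in CD8 KO controls, against 49.9, 101 and 78.0 CPM in CD8 WT controls, and all 7 that could be tested had positive fold changes there, of which none passed. In CD4 KO controls it was 313, 132 and 142 CPM, against 66.0, 55.5 and 78.7 CPM in CD4 WT controls, and 4 of those 7 rose. It was 221 CPM or more in every lymphoma library. In CD4 KO lymphoma libraries it was 487, 442 and 301 CPM, beside Ctla2a at 264, 273 and 63.3 CPM. In CD4 WT lymphoma libraries it was 221, 264 and 255 CPM, beside Ctla2a at 117, 157 and 111 CPM. Of the 8, Tubb1 had no count in either group of WT controls and the others were detected in every group, with Pf4 at 59.6, 32.7 and 26.0 CPM in CD8 KO controls, against 9.46, 18.9 and 16.2 CPM in CD8 WT controls. The part of platelet RNA in the Ctla2a result was not tested.

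In control mice, KO against WT, the median log2 fold change of the 10 members was 1.21 in CD8 and 1.06 in CD4 cells, beside 0.04 and -0.01 over all genes tested. In CD8 cells 8 of the 10 members had every KO control above every WT control, where 12.1% of genes tested did. In CD4 cells it was 9 of 10, against 21.4%. Y-linked genes also differed between KO and WT controls of both co-receptors, as given above. Beyond a Y-linked covariate, the part of sex in these differences was not tested. In CD4 cells edgeR called 1, Gzmb, DESeq2 called 5 and limma voom 6, and with the share of B identifiers as a covariate edgeR called 0. Without CD4 WT control 3, the highest of the CD4 WT controls for each of the 9 members given by library, Gzma (2.15), Prf1 (1.19) and Nkg7 (1.73) were called too, and without any other library of that comparison none was called. In CD8 cells Gzmm alone was called without any of CD8 KO control 1, 2 or 3, or CD8 WT control 1 or 3. Other genes of the pathway changed in the same comparison. Of 11 regulators tested, Tbx21 rose in both co-receptors, by 1.57 ± 0.18 in CD8 (adjusted p = 0.00394) and 1.42 ± 0.23 in CD4 cells (adjusted p = 0.0242). Il2rb, a chain of the interleukin-2 and interleukin-15 receptors, also rose in both (CD8 1.20 ± 0.18, CD4 0.98 ± 0.20). Eomes (1.09 ± 0.22) and the interleukin-12 receptor chain Il12rb2 (2.19 ± 0.50) rose in CD4 cells, so that 2 of 11 regulators passed in CD8 and 4 of 11 in CD4 cells, all upward. Of 8 other effectors, Ccl5, a chemokine of cytotoxic cells (1.40 ± 0.32), and interferon gamma (Ifng, 1.56 ± 0.33) rose in CD4 cells and none in CD8 cells. Of 13 granule maturation and exocytosis genes, Stx11, a syntaxin needed for granule fusion, rose in CD4 cells (1.20 ± 0.23) and none in CD8 cells. Of 6 protease inhibitors Ctla2b passed in both co-receptors and no other in either. Of these calls Tbx21 in CD8 cells held whichever library was left out. That of Il2rb in CD8 cells was lost without any CD8 KO control, or CD8 WT control 1 or 3 (adjusted p 0.0522 to 0.0697). The CD4 calls were lost without CD4 WT control 1 or any CD4 KO control, all but Tbx21 also without CD4 WT control 2, and Ifng and Ctla2b also without CD4 WT control 3 (adjusted p 0.0535 to 0.234).

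The summed level of natural killer cell markers was also higher in KO than in WT controls, without overlap. The summed CPM of 10 of them was 406, 364 and 335 in CD8 KO controls, against 43.2, 264 and 256 in CD8 WT controls. In CD4 cells it was 426, 333 and 389 in KO controls, against 75.6, 132 and 249 in WT controls. All 10 markers had positive fold changes in both co-receptors. In CD4 cells 3 passed: Tyrobp and Fcer1g, also expressed by myeloid cells, and Cma1, a chymase gene also known from mast cells. None passed in CD8 cells. With lymphoma against control, 2 of the 10 had positive fold changes in each genotype and co-receptor. There the sum need not follow most of its markers. None of the 10 was at 0 throughout a group, although the T cell isolation kit is meant to remove such cells. CD8 WT control 1 had both the lowest marker sum and the lowest Gzma of all 24 libraries. The marker sums of CD8 and CD4 KO controls overlapped. Gzmm held 84.4 to 114 CPM in CD8 KO controls and 16.1 to 27.6 CPM in CD8 WT controls. It held 4.87 to 6.13 CPM in CD4 KO controls and 2.08 to 4.33 CPM in CD4 WT controls. The sum of 6 gamma-delta T cell markers was 23.2 to 27.7 CPM in CD8 KO controls and 13.4 to 21.4 CPM in CD8 WT controls, and 23.9 to 31.1 CPM in CD4 KO controls and 15.4 to 21.5 CPM in CD4 WT controls. In CD4 KO controls other blood cell markers were also higher than in WT controls: 6 monocyte and macrophage markers summed to 684 to 877 CPM in KO, against 206 to 419.8 CPM in WT controls, and 5 of the 6 rose. In the same CD4 libraries 8 blood progenitor markers summed to 52.3 to 64.2 CPM in KO and 13.5 to 20.2 CPM in WT controls, and 6 B cell markers to 249 to 342 CPM in KO and 16.3 to 247 CPM in WT controls, and none of either list passed. In CD8 controls the monocyte and macrophage sum was 485 to 603 CPM in KO, against 68.4 to 472 CPM in WT mice, and none of the 6 passed. Of 4 mast cell and basophil markers none passed in either co-receptor. Beyond these values, the part of other cells in the KO differences was not tested.

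**Figure D2:**
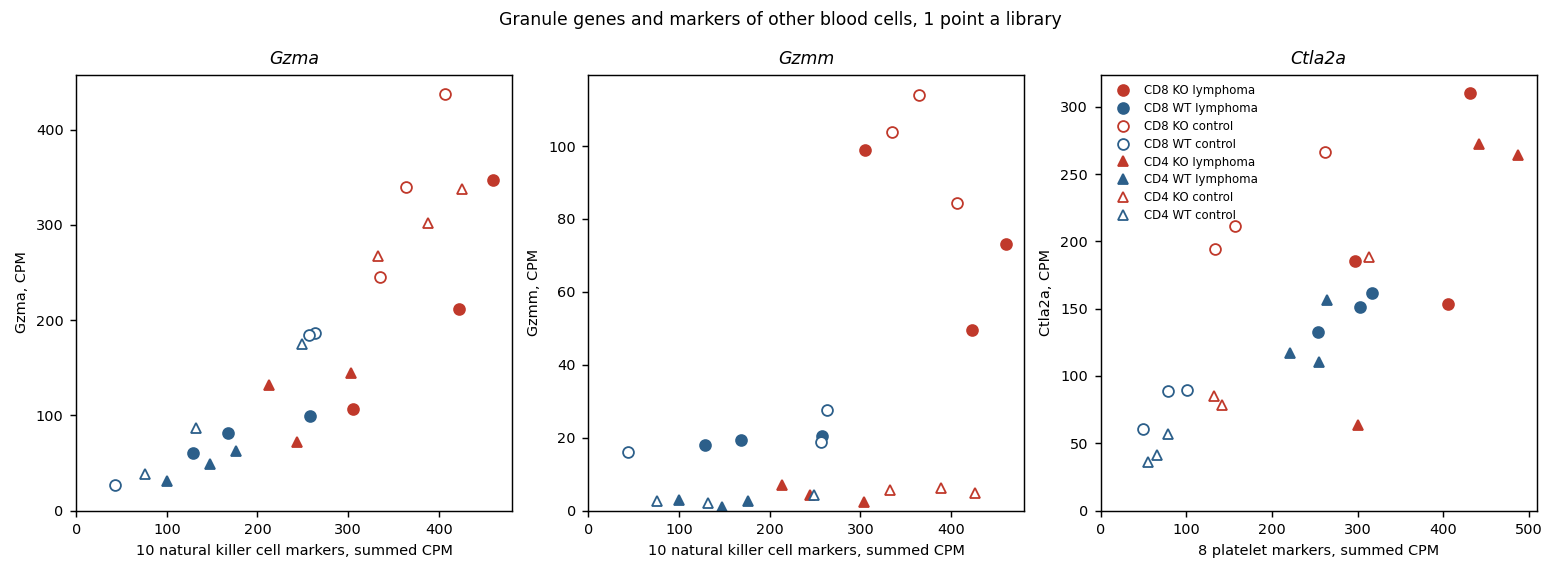
CPM of Gzma and Gzmm against the summed CPM of 10 natural killer cell markers, and of Ctla2a against 8 platelet markers, with 1 point a library (circles CD8, triangles CD4, red KO, blue WT, filled lymphoma, open control). The library with the lowest natural killer sum (43.2 CPM, CD8 WT control 1) also has the lowest Gzma. Gzmm is at 7.01 CPM or less in CD4 libraries. The part of natural killer cells was not tested.

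With lymphoma, 9 of 10 members had a positive KO against WT fold change in each co-receptor, with medians of 0.69 in CD8 and 0.55 in CD4 cells beside 0.03 and 0.01 over all genes tested. Every CD8 KO lymphoma library exceeded every CD8 WT lymphoma library for 4 members (Gzma, Gzmb, Gzmm and Fasl), where 8.03% of genes tested did. Gzmm alone passed, and of the 11 regulators only Tbx21 did (1.18 ± 0.18, adjusted p = 0.0249). Both calls were lost without CD8 KO lymphoma 3 or any CD8 WT lymphoma library (Tbx21, adjusted p 0.0565 to 0.188; Gzmm, 0.0508 to 0.13). In CD4 cells no member passed in edgeR, where 0% of genes tested were called, and none did in DESeq2 or limma voom. There 3 had an unadjusted p under 0.05, as had 10.9% of genes tested, and Gzmb, with the smallest, differed by 1.05 ± 0.36 (adjusted p = 0.375). Gzma and Nkg7 did not overlap there, against 6.81% of genes tested. The natural killer marker sum was 423, 460.3 and 305 CPM in CD8 KO lymphoma and 128, 168 and 258 CPM in CD8 WT lymphoma libraries, and its part was not tested.

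**Figure D3:**
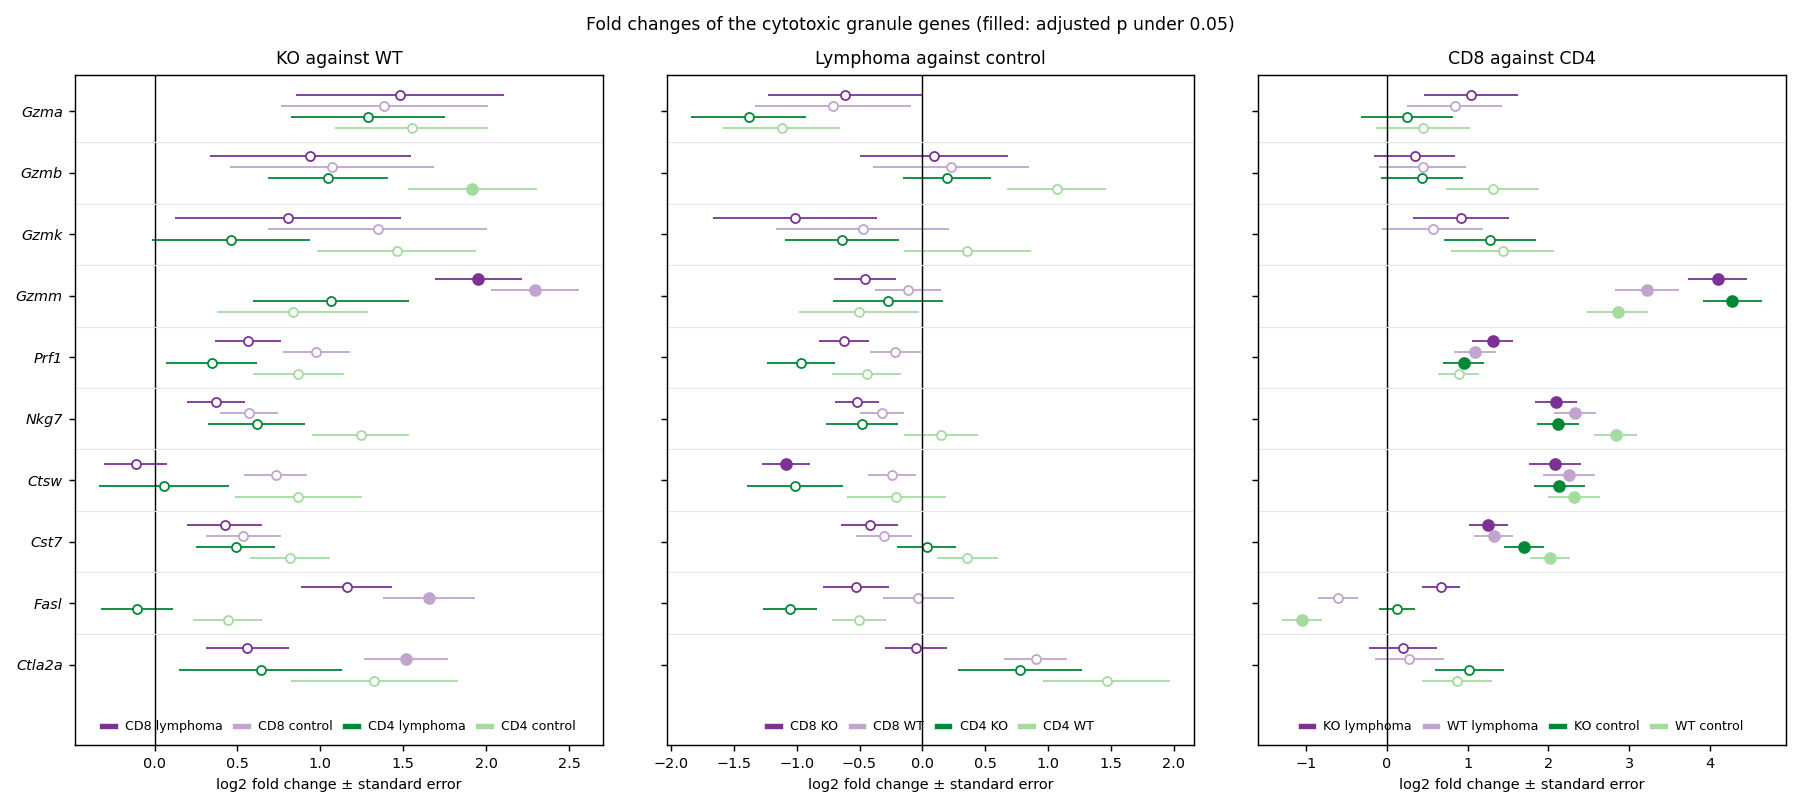
Log2 fold change with its standard error for each member in the 12 comparisons of 2 groups; filled points have an adjusted p under 0.05. In the left panel all 10 members lie right of 0 in both control comparisons, and in the right panel Gzmm is farthest from 0, at up to 4.27.

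With lymphoma against control, 1 member passed, Ctsw in CD8 KO cells, and fitted fold changes were above 0 for 1 member in CD8 KO, 2 in CD8 WT, 3 in CD4 KO and 5 in CD4 WT cells. The median log2 fold change of the members was -0.52 in CD8 KO, -0.23 in CD8 WT, -0.56 in CD4 KO and -0.03 in CD4 WT cells, beside -0.02, -0.01, -0.01 and -0.01 over all genes tested. In CD8 KO cells Ctsw passed, but not without CD8 KO control 1, 2 or 3 or CD8 KO lymphoma 3, and 4 members (Prf1, Nkg7, Ctsw and Fasl) had every lymphoma library below every control, where 13.7% of genes tested did. DESeq2 also called Prf1 and Nkg7 there, as did edgeR without CD8 KO lymphoma 2 (Prf1 -0.94, adjusted p = 0.00555; Nkg7 -0.67, 0.0335). With all libraries edgeR gave -0.63 ± 0.20 for Prf1 and -0.52 ± 0.17 for Nkg7. Without CD8 KO lymphoma 1, the library low in T cell and high in B cell markers, the values were -0.41 (adjusted p = 0.191) and -0.32 (0.171). Of the 13 granule maturation and exocytosis genes 3 rose in CD8 KO lymphoma cells, the lysosomal membrane protein gene Lamp2 (0.90 ± 0.19), the vesicle fusion gene Vamp8 (0.83 ± 0.17) and the chaperone gene Calr (0.70 ± 0.16). These calls were lost without any of the 6 libraries but CD8 KO lymphoma 2 (adjusted p 0.0826 to 0.147), and 1.39% of genes tested rose. The monocyte and macrophage markers summed to 1249 to 1767 CPM in CD8 KO lymphoma libraries, against 485 to 603 CPM in CD8 KO controls, with none of the 6 called, and the part of such cells was not tested. None of the 11 regulators passed there.

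In CD4 KO cells 4 members (Gzma, Prf1, Ctsw and Fasl) had every lymphoma library below every control, where 10.1% of genes tested did. No member and 0% of genes passed in edgeR, while 4 members and 15.2% of genes tested had an unadjusted p under 0.05, DESeq2 called 3 (Gzma, Prf1 and Fasl) and limma voom 2 (Prf1 and Fasl). Fasl had the smallest p, with -1.05 ± 0.21 (adjusted p = 0.106). Without CD4 KO lymphoma 2, edgeR called Fasl (-1.27, adjusted p = 0.0277) and Prf1 (-1.18, 0.0491). Other markers moved in the same libraries. The natural killer sum was 304, 213 and 244 CPM in CD4 KO lymphoma libraries, against 426, 333 and 389 CPM in CD4 KO controls. Of its 10 markers, 8 did not overlap and were lower, 1 did not overlap and was higher, and 2 had positive fold changes. The B cell sum was 32.9 to 67.5 CPM in CD4 KO lymphoma libraries, against 249 to 342 CPM in CD4 KO controls, and that of blood progenitors 114 to 703 CPM, against 52.3 to 64.2 CPM. None of these markers passed or was at 0 throughout either group, and their part in these differences was not tested. In WT cells the smallest p belonged to Ctla2a in both co-receptors, at 0.90 ± 0.25 in CD8 (adjusted p = 0.0925) and 1.47 ± 0.51 in CD4 cells (adjusted p = 0.193). No member passed in edgeR in either, with 1 member in CD8 and 4 in CD4 cells at an unadjusted p under 0.05. Over all genes tested, 1.42% were called in CD8 and 1.69% in CD4 cells, and 17.8% and 15.2% had an unadjusted p under 0.05. In CD8 WT cells Nkg7, Ctsw and Cst7 had every lymphoma library below every control, and Ctla2a had every one above. In CD4 WT cells Fasl lay below and Ctla2a above in this way. The share of all genes tested that did so is not given for WT cells. DESeq2 called Ctla2a in both, and limma voom called it in CD8 cells. Of the other lists, Stx11 (1.45 ± 0.23) and the chemokine gene Ccl4 (1.88 ± 0.38) rose in CD4 WT lymphoma cells. Stx11 lost its call without CD4 WT lymphoma 2 or 3 or CD4 WT control 1 (adjusted p 0.0505 to 0.0694), and Ccl4 without those or CD4 WT control 2 (0.107 to 0.167). Beside this, 8 blood progenitor markers summed to 61.4 to 215 CPM in CD8 WT and 76.4 to 299 CPM in CD4 WT lymphoma libraries, against 10.9 to 24.8 CPM and 13.5 to 20.2 CPM in the matching WT controls, and platelet markers were higher as given above. Their part was not tested.

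Set side by side, CD8 libraries had more of Gzmm, Nkg7, Ctsw and Cst7 than CD4 libraries in all 4 conditions. Gzmm differed by 4.09 ± 0.36 in KO lymphoma, 3.22 ± 0.39 in WT lymphoma, 4.27 ± 0.36 in KO control and 2.85 ± 0.37 in WT control mice (adjusted p at most 5.74e-05). Nkg7 differed by 2.09 to 2.83 over the 4 conditions (adjusted p at most 3.53e-05), Ctsw by 2.08 to 2.32 (at most 0.00041) and Cst7 by 1.26 to 2.02 (at most 0.0036). These calls held with each library left out in turn. Taken pool by pool, the CD8 library had more than the CD4 library of the same mice in 12 of 12 pools for Gzmm (median ratio 15.1), Nkg7 (4.50), Ctsw (4.18), Cst7 (3.05) and Prf1 (2.02). Prf1 passed in KO lymphoma (1.31 ± 0.26, adjusted p = 0.0047), WT lymphoma (1.09 ± 0.26, 0.024) and KO control mice (0.95 ± 0.25, 0.0296). The calls in WT lymphoma and KO control mice were each lost whichever of their 6 libraries was left out (adjusted p 0.0521 to 0.155). In WT controls Prf1 differed by 0.89 ± 0.26 (adjusted p = 0.0654), and with the mouse pool as a block it passed (0.94, adjusted p = 0.0322), as it did in DESeq2, in limma voom and without CD4 WT control 3 (adjusted p 0.00646 to 0.0242).

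The remaining members did not follow this order. Fasl was lower in CD8 than in CD4 WT controls, with a log2 fold change of -1.05 ± 0.24 (adjusted p = 0.0162), where 1.62% of genes tested were lower. That call was lost without CD8 WT control 1 (-0.80, adjusted p = 0.103), CD8 WT control 3 (0.0758) or CD4 WT control 2 (0.0648). In the other conditions Fasl differed by 0.67 ± 0.24 in KO lymphoma, -0.60 ± 0.25 in WT lymphoma and 0.13 ± 0.23 in KO control mice, none past the threshold. It was higher in the CD8 library in 5 of 12 pools, Gzmb in 6, Gzma and Gzmk in 10 each and Ctla2a in 11. Gzma did not pass in KO lymphoma mice (1.05 ± 0.58, adjusted p = 0.547), but did with the pool as a block (0.96, adjusted p = 0.0484). Likewise Ctla2a passed in KO controls with that block (1.13, adjusted p = 0.0357, against 0.205 without it), and limma voom called it too (1.16, 0.00721). In all, 5 members were called higher in CD8 cells in KO lymphoma, 5 in WT lymphoma, 5 in KO control and 4 in WT control mice.

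Regulators known from CD8 T cells ran the same way between the co-receptors. Eomes was higher in CD8 cells by 1.78 to 2.27 over the 4 conditions, Tbx21 by 0.98 to 1.40 and Il2rb by 0.78 to 1.16, all past the threshold (adjusted p at most 0.032). Runx3 passed in WT lymphoma (0.86 ± 0.17), KO control (0.72 ± 0.16) and WT control mice (0.83 ± 0.17). Prdm1, which encodes Blimp-1, was lower in CD8 cells in KO lymphoma (-1.01 ± 0.26), WT lymphoma (-1.25 ± 0.27) and WT control mice (-1.25 ± 0.27). Among the other effectors Ccl5 was higher in CD8 cells in all 4 conditions (1.58 to 2.28) and Xcl1, a chemokine of cytotoxic cells, in all but KO controls (1.66 to 2.10), while lymphotoxin alpha (Lta) was lower in KO controls (-1.35 ± 0.27). Of the 13 granule maturation and exocytosis genes none was higher, and Rab27a, which docks granules, was lower in KO lymphoma (-0.70 ± 0.15) and KO control mice (-0.56 ± 0.15). Of the inhibitors, Serpinb6b was higher in CD8 cells in all 4 conditions (0.79 to 1.01) and Ctla2b in both control comparisons (1.34 and 1.61).

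The calls on Eomes in all 4 conditions, and on Tbx21, Il2rb and Ccl5 in the 3 conditions other than WT lymphoma, held whichever library was left out. In WT lymphoma mice, Ccl5 lost its call without CD4 WT lymphoma 1 (adjusted p = 0.0806), Tbx21 without CD8 WT lymphoma 2 or CD4 WT lymphoma 1 or 2 (0.0552 to 0.0964), and Il2rb without any library but CD4 WT lymphoma 3 (0.0555 to 0.22). Serpinb6b lost its call there without any library but CD8 WT lymphoma 2 (0.0518 to 0.176), and in KO controls without CD8 KO control 1 or 2 or CD4 KO control 2 or 3 (0.053 to 0.113). Runx3 lost its call in KO controls without CD8 KO control 1 (0.0666), and Ctla2b without CD4 KO control 2 (0.0506). Xcl1 lost its call in KO lymphoma mice without CD8 KO lymphoma 2 (0.0688), and in WT controls without CD8 WT control 2 or CD4 WT control 1 or 2 (0.0524 to 0.0661). Rab27a lost its call in KO lymphoma mice without CD8 KO lymphoma 1 or CD4 KO lymphoma 1 (0.0579 and 0.074), and in KO controls without any 1 of the 6 libraries (0.05 to 0.18). Prdm1 lost its call in KO lymphoma mice without any library but CD4 KO lymphoma 2 (0.0634 to 0.186), in WT lymphoma mice without CD8 WT lymphoma 1 or 3 or CD4 WT lymphoma 3 (0.0583 to 0.0862), and in WT controls without CD8 WT control 1 or CD4 WT control 3 (0.0673 and 0.0515).

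Whether an effect of genotype or lymphoma differed between groups was tested as a difference of log2 fold changes, in 6 such comparisons. No member passed in edgeR, DESeq2 or limma voom, and 5 of the 60 values had an unadjusted p under 0.05, as had 3.55% of the values of all genes tested. In edgeR 0% of genes passed in 4 of these comparisons, 0.0151% where the KO against WT difference of lymphoma mice was set in CD8 against CD4 cells and 0.0378% where that of control mice was. The KO against WT difference of Fasl was larger in CD8 than in CD4 cells by 1.27 ± 0.34 in lymphoma mice (adjusted p = 1) and by 1.17 ± 0.33 in control mice (adjusted p = 0.867). For Gzmm it was larger by 1.42 ± 0.50 in controls (adjusted p = 1). The lymphoma response in CD8 cells was lower in KO than in WT mice by 0.84 ± 0.27 for Ctsw and by 0.96 ± 0.35 for Ctla2a on the log2 scale, neither past the threshold. Calls made in one group and missed in another above are thus not shown to differ between those groups.

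Across the 24 libraries the members did not share one profile. Likeness was taken as the root mean square difference of centred log2 CPM, which is 0 for identical profiles, and the libraries share their co-receptor and mouse contrasts, so it is a description. Among members, Nkg7 and Ctsw were closest (0.42), then Nkg7 and Cst7 (0.46), and Gzmm and Fasl were farthest apart (1.66). Among all genes tested, the nearest to Gzma were Klra4 (0.263), Klrc2 (0.306) and Klra8 (0.328), which encode receptors of natural killer cells and of some T cells. Eomes was the nearest gene to Nkg7 (0.339) and the second nearest to Ctsw (0.332), after the predicted gene Gm45837 (0.298) and before the receptor gene Klrd1 (0.350). Gzmm had no gene as near, with 5830411N06Rik (0.552), Cd163l1 (0.638) and Samd3 (0.666) first. Nkg7 was followed by Chsy1 (0.448) and Nrp2 (0.482). Prf1 was nearest to Il18rap (0.312), a chain of the interleukin-18 receptor, then St3gal6 (0.327) and Tm6sf1 (0.329). Cst7 was nearest to Baiap3 (0.262), Glipr2 (0.312) and Usp11 (0.327). Gzmb was nearest to Runx2 (0.359), the chemokine receptor gene Ccr2 (0.371) and Rhoq (0.382). Fasl was nearest to Gabarapl2 (0.319), Slc37a2 (0.327) and Capn2 (0.331), against its own spread of 0.515. Ctla2a was nearest to Ctla2b (0.359), followed by Gp6 (0.426), a platelet collagen receptor gene, and Plek (0.428).

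**Figure D4:**
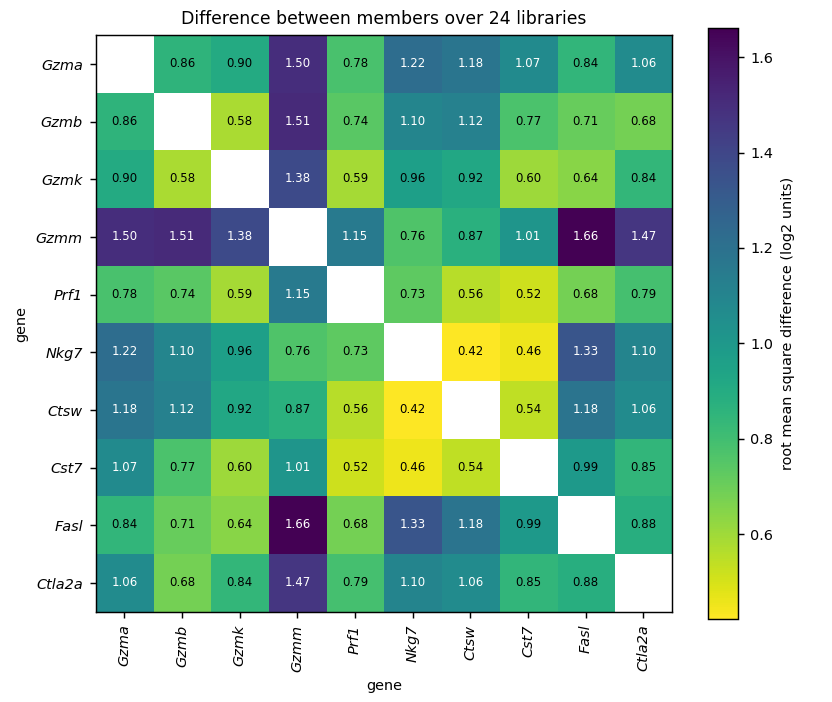
Root mean square difference of centred log2 CPM between each pair of members over 24 libraries, with small values (yellow) for similar profiles. Nkg7, Ctsw and Cst7 lie close together (0.42 to 0.54), and Gzmm and Fasl are the most different pair (1.66).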

How the data were processed

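RNA of splenic T cells, isolated with the EasySep mouse T cell kit and extracted with RNeasy, was made into QuantSeq 3′ FWD libraries, per the labels' protocols. The authors deposited 1 table of estimated counts per gene. The submitters' processing notes name Salmon 0.11.3 and the build GRCh38, which is a human build although the genes are mouse genes; the mouse build and annotation used are not given in the sources used here. Every value used was whole, so no rounding was needed. Of 34113 genes, 2 were dropped because 1 cell of each held a letter, which left 34111, of which 11473 had no count in any library. Totals of 6470482 to 10196062 counts a library set the precision: 3 counts, the limit that a count of 0 allows, were 0.294 to 0.464 CPM, and this covers counting error only.

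Samples were grouped by their titles. Counts were tested with edgeR 4.0.16 (R 4.3.3), using TMM scaling, filterByExpr with a minimum count of 10 and a total of 15, and robust quasi-likelihood fits. The 12 CD4 and the 12 CD8 libraries were fitted apart (12808 and 12650 genes tested), and all 24 together for CD8 against CD4 (13232 genes). P-values were Benjamini-Hochberg adjusted over all genes tested in a comparison, and the SE is the log2 fold change over the square root of F. The 18 comparisons gave 180 member tests. Within a co-receptor, libraries come from different pools of mice or, in WT lymphoma, from different single mice. P-values there measure the spread between these pools and mice. In the main CD8 against CD4 fit the CD8 and CD4 libraries of a pool were treated as independent, so its p-values leave out the shared mice. The fitting was tested on simulated counts. CD8 and CD4 libraries of a pool share their mice by label, and their deviations from group means correlated at -0.0548 to 0.587 over the 12 pairs, so the pool was also used as a block. Alternatives were DESeq2 1.42.0, voom of limma 3.58.1 with weights per sample, other scalings, filters, covariates and sets of libraries, and each library left out.

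Members and gene lists were chosen with earlier results of these data known. All members are named, with CPM in every library where the mean was at least 5 CPM. Fold changes are given for members that passed, for the smallest p where none did, and for the matching comparisons; listed pathway genes are named where they passed, up to 4 a list. The nearest profiles used log2 CPM with a prior count of 2. Ctla2a and Ctla2b transcripts came from GENCODE M21, and promoter windows from RefSeq (GRCm38.p6).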

Additional observations from a re-analysis of the deposited data

How the results depend on the processing

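Over the fold changes of members and other genes named above, 1651 values under an alternative kept their direction and side of the threshold, 210 lost a call and 40 gained one. The 1 that changed direction was Fasl in CD4 lymphoma KO against WT, never called, at -0.31 to 0.049 with each library left out in turn (-0.11 with all). With DESeq2 the members called numbered 1 in CD4 WT lymphoma against control (0 in edgeR), 3 in CD4 KO lymphoma against control (0), 5 in CD4 control KO against WT (1), 1 in CD8 WT lymphoma against control (0), 3 in CD8 KO lymphoma against control (1), 5 in CD8 control KO against WT (3) and 2 in CD8 lymphoma KO against WT (1). Limma voom called 2 in CD4 KO lymphoma against control, 6 in CD4 control and 6 in CD8 control KO against WT, and 1 in CD8 WT lymphoma against control. A fit of the libraries compared alone called 1 in each WT lymphoma comparison, 2 in CD4 control and 6 in CD8 control KO against WT, and 0 in CD8 KO lymphoma against control and in CD8 lymphoma KO against WT. All 24 libraries in 1 fit gave 2 in CD8 lymphoma KO against WT. The share of identifiers with a B as a covariate left 0 in CD4 control, and the Y-linked covariate left 1 in CD8 control KO against WT. The causes were not tested.

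With each library left out in turn, the count ranged over 0 to 2 in CD4 KO lymphoma against control, 0 to 4 in CD4 control KO against WT, 0 to 3 in CD8 KO lymphoma against control, 1 to 3 in CD8 control and 0 to 1 in CD8 lymphoma KO against WT. Where this left a group of 2 or fewer, the spread was pooled over groups.

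Within a co-receptor, libraries with the same number come from different mice, and their deviations correlated at -0.224 to 0.388 over 24 pairs. A replicate block by that number gave 2 calls in CD4 control KO against WT (Nkg7 added, 1.32, adjusted p = 0.0476) and 0 in CD8 KO lymphoma against control (Ctsw, -1.10, adjusted p = 0.0577). In CD4 lymphoma KO against WT all 3 pairs were above 0.1 (0.235 to 0.388), and the block left the count at 0. Other than the 3 calls given with the CD8 against CD4 results, the block by mouse pool changed no call among the members. Depth limits precision for Gzmb, Gzmk and Fasl, with at most 159 counts a library, and for Gzmm in CD4 libraries, with 9 to 70.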
